A study of Homo sapiens
Mus musculus with 17 samples.

Results

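The 9 kallikrein-related peptidase genes KLK5, KLK6, KLK7, KLK8, KLK10, KLK11, KLK12, KLK13 and KLK14, together with the inhibitor gene SPINK5, were followed in human reads of bladder tumour xenografts. These 10 genes were taken by symbol from a human table of 23368 genes. All 10 passed the minimum of 10 mean normalized counts, as did 14533 genes in the table. Each xenograft held cells of VM-CUB-1, an established line from a human bladder carcinoma, in Hsd:Athymic Nude-Foxn1nu mice, so that all groups share 1 line and a host that lacks most mature T cells. Treatment lasted 7 days, with 4 tumours under the combination of both drugs, 4 under alpelisib alone, 5 under nintedanib alone and 4 under vehicle (0.5% methylcellulose with 0.1% Tween80). The alpelisib dose was 25 mg/kg and the nintedanib dose 40 mg/kg. Alpelisib, also named BYL719, blocks the PI3K catalytic subunit p110-alpha, while nintedanib blocks receptor kinases of the VEGF, FGF and PDGF families. The titles call 3 of the nintedanib tumours responders and 2 non-responders, whereas the series text gives 2 responders and 3 non-responders. The titles were followed. Whether each tumour had its own mouse is not said in the labels. The p-values treat the libraries as independent, which would not hold if tumours shared a mouse.

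Kallikrein-related peptidases are secreted serine proteases made as inactive precursors. In the upper layers of keratinizing epithelium they activate each other and cut the adhesion proteins of corneodesmosomes, which lets surface cells be shed. SPINK5 encodes LEKTI, a secreted inhibitor that binds several of these proteases, and its loss in humans causes Netherton syndrome, a disease of excessive skin shedding. Normal urothelium does not keratinize, and expression of these genes in bladder tumours goes with squamous differentiation.

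In the 17 libraries, human reads ranged from 7429753 to 25654879 (median 20312801), and the 10 genes together took 0.0712% to 0.371% of them. The lowest value rested on 19 reads, for KLK5 in nintedanib non-responder 1. The tumour identity of the human reads was checked on 8 epithelial markers (EPCAM, CDH1 and the keratins KRT5, KRT8, KRT14, KRT17, KRT18 and KRT19), none of which averaged under 10 normalized counts. Of 8 luminal urothelial markers, UPK3A and KRT20 averaged under 10. Of 12 host stroma and immune markers, PECAM1, CDH5, PTPRC, PDGFRB and ADIPOQ averaged under 10 in the human table. CD68, CSF1R, COL1A1, COL1A2, COL3A1, ACTA2 and CKM reached that minimum. These levels alone do not establish that the human reads came only from tumour cells. These are bulk tumours, so fewer expressing cells and less RNA per cell cannot be told apart.

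All 10 genes were detected in every tumour, and each had its lowest group mean in vehicle. The highest group mean was in alpelisib tumours for 8 genes and in combination tumours for KLK14 and SPINK5. The SDs of the groups were wide, and no gene passed a Benjamini-Hochberg adjusted p under 0.05 over all 14533 genes by limma in any of the 7 comparisons made. Below, levels are normalized counts, and differences are log2 fold changes ± SE from limma on log2(value + 1). Levels are compared between groups within a gene, not between genes, because no transcript lengths were used.

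**Figure D1:**
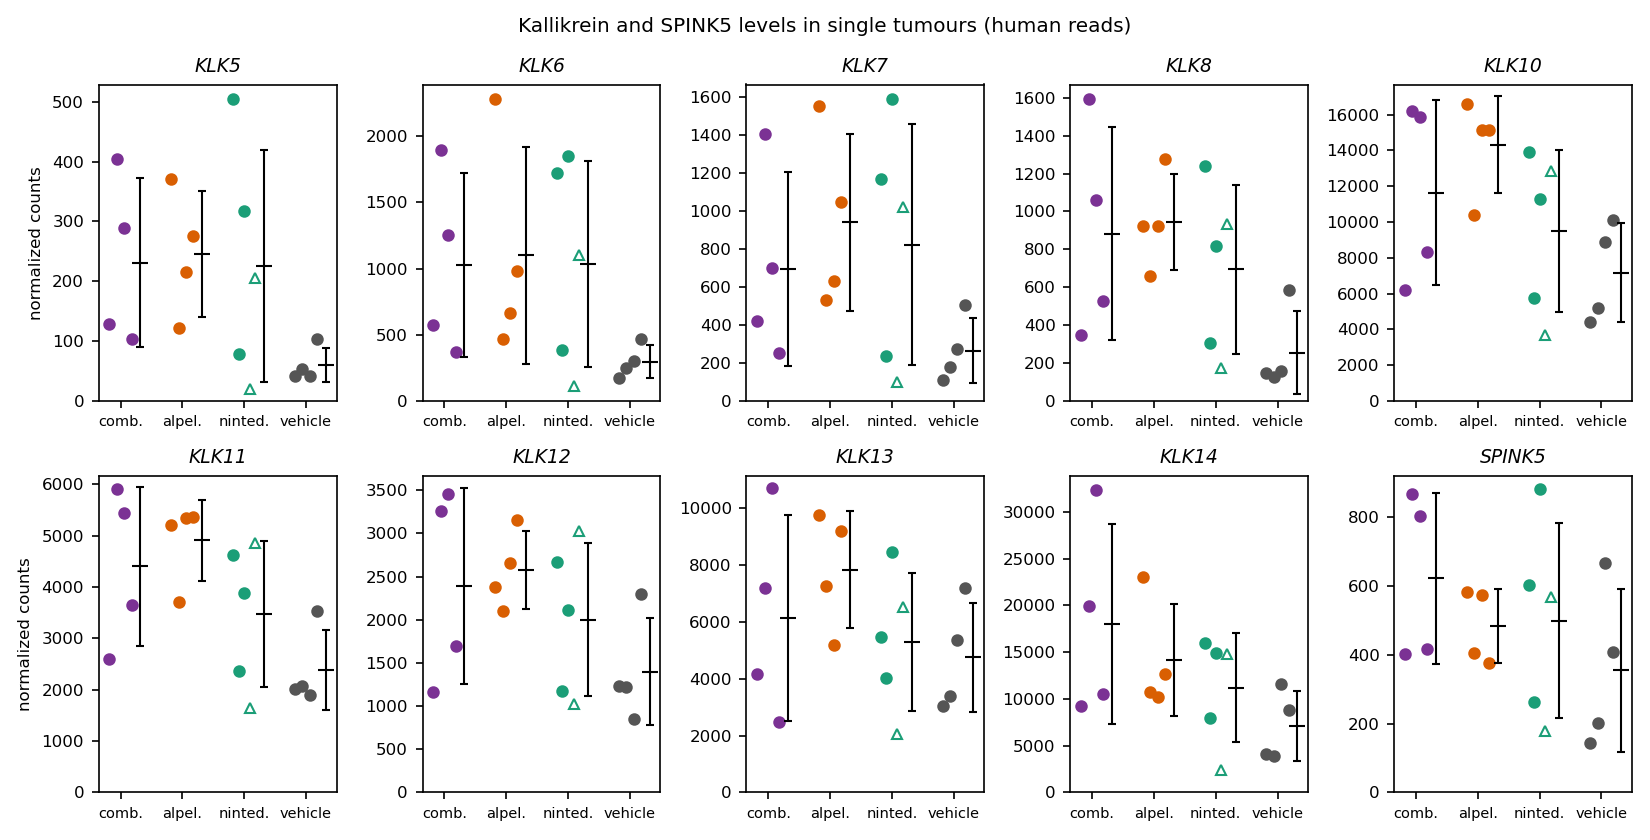
Normalized counts (vertical axis, linear from 0) of the 10 genes in single tumours, for combination (comb.), alpelisib (alpel.), nintedanib (ninted.) and vehicle. Filled circles are tumours, open triangles are nintedanib non-responders, and black bars are group mean ± SD (n = 4, 4, 5 and 4); for KLK5 the 4 alpelisib tumours sit between 121 and 371, above all 4 vehicle tumours, while the nintedanib tumours spread from 20.6 to 505.

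KLK5, a trypsin-like protease that in human skin activates other kallikreins and is a main target of LEKTI, had 129, 404, 288 and 103.3 normalized counts in combination tumours. It had 371, 121, 215 and 275 in alpelisib tumours. It had 505, 77.8 and 318 in nintedanib responders and 20.6 and 206 in non-responders, against 42.3, 53.3, 42.1 and 102.9 in vehicle tumours. Combination and alpelisib tumours did not overlap with vehicle tumours, although Combination 4 lay just above Vehicle 4. Nintedanib tumours held both the highest and the lowest value of the series. The difference from vehicle was 1.81 ± 0.65 with the combination (adjusted p = 0.168), 2.00 ± 0.65 with alpelisib (adjusted p = 0.21) and 1.31 ± 0.61 with nintedanib (adjusted p = 0.619).

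KLK7, a chymotrypsin-like protease that cuts corneodesmosin, had 419, 1408, 699 and 251 normalized counts in combination tumours. It had 1555, 533, 629.7 and 1050.0 in alpelisib tumours. It had 1168, 237 and 1592 in nintedanib responders and 97.4 and 1023 in non-responders, against 111, 177, 271 and 503 in vehicle tumours. Alpelisib tumours lay above all vehicle tumours, whereas combination and nintedanib tumours overlapped with them. The difference from vehicle was 1.31 ± 0.71 with the combination (adjusted p = 0.334), 1.92 ± 0.71 with alpelisib (adjusted p = 0.222) and 1.23 ± 0.67 with nintedanib (adjusted p = 0.619).

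KLK14, a trypsin-like protease able to cut desmoglein 1, had 9201, 19911, 32360.2 and 10522 normalized counts in combination tumours. It had 23007, 10731, 10258 and 12672 in alpelisib tumours. It had 15962, 7975 and 14946 in nintedanib responders and 2436 and 14791 in non-responders, against 4147, 3853, 11613 and 8846 in vehicle tumours. Each treated group overlapped with vehicle, where Vehicle 3 was the highest. The difference from vehicle was 1.31 ± 0.52 with the combination (adjusted p = 0.199), 1.07 ± 0.52 with alpelisib (adjusted p = 0.273) and 0.54 ± 0.49 with nintedanib (adjusted p = 0.668).

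KLK8, a trypsin-like protease also called neuropsin, had the largest fitted difference from vehicle among the 10 genes in each of the 3 treatments. It had 347, 1592, 1061 and 529 normalized counts in combination tumours and 924, 659.7, 922 and 1278 in alpelisib tumours. It had 1239, 306 and 819 in nintedanib responders and 173 and 931 in non-responders, against 147, 128, 160.5 and 585 in vehicle tumours. Vehicle 4 stood apart from the other vehicle tumours and overlapped with combination and nintedanib tumours but not with alpelisib tumours. The difference was 1.86 ± 0.58 with the combination (adjusted p = 0.133), 2.16 ± 0.58 with alpelisib (adjusted p = 0.209) and 1.42 ± 0.55 with nintedanib (adjusted p = 0.619). KLK6, a trypsin-like protease also known from brain, ranged from 373 to 1898 in combination, from 469.6 to 2283 in alpelisib and from 109 to 1849 in nintedanib tumours, against 173 to 466 in vehicle tumours. Its differences were 1.59 ± 0.68, 1.71 ± 0.68 and 1.29 ± 0.65 for the combination, alpelisib and nintedanib (adjusted p = 0.23, 0.233 and 0.619).

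KLK11, a trypsin-like protease of secretory and squamous epithelia, had 2602, 5907, 5438 and 3648 normalized counts in combination tumours and 5198, 3714, 5335 and 5368 in alpelisib tumours. It had 4621, 2369 and 3880.1 in nintedanib responders and 1636 and 4857 in non-responders, against 2012, 2065, 1899.7 and 3535 in vehicle tumours. The lowest alpelisib tumour lay above the highest vehicle tumour. The difference was 0.86 ± 0.33 with the combination (adjusted p = 0.188), 1.08 ± 0.33 with alpelisib (adjusted p = 0.21) and 0.48 ± 0.32 with nintedanib (adjusted p = 0.619). By DESeq2 on recovered reads, KLK11 after alpelisib was the single call among the 10 genes in any comparison (1.04, adjusted p = 0.0295), with 4 of the 10 genes given an adjusted p there. That adjustment ran over 1008 genes, of which 17.2% were called, whereas limma adjusted over 14533 genes.

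KLK10, first described as a gene lost in breast tumour cells, averaged 11643 ± 5163 in combination (SD, n = 4), 14312 ± 2712 in alpelisib (n = 4) and 9502 ± 4511 in nintedanib tumours (n = 5), against 7170 ± 2778 in vehicle tumours (n = 4). Its alpelisib tumours lay above all vehicle tumours, with a lowest value of 10378 against a highest vehicle value of 10139. The KLK10 difference from vehicle was 0.67 ± 0.41 with the combination (adjusted p = 0.397), 1.06 ± 0.41 with alpelisib (0.229) and 0.32 ± 0.39 with nintedanib (0.739). KLK12, a trypsin-like protease, averaged 2393 ± 1134 in combination, 2574 ± 451 in alpelisib and 2002 ± 890 in nintedanib tumours, against 1399 ± 622 in vehicle tumours. Its difference was 0.73 ± 0.39 with the combination (adjusted p = 0.332), 0.96 ± 0.39 with alpelisib (0.237) and 0.48 ± 0.37 with nintedanib (0.638). KLK13, also trypsin-like, ranged from 2481 to 10701 in combination tumours, from 5176 to 9744 in alpelisib tumours and from 2043 to 8447 in nintedanib tumours, against 3054 to 7199 in vehicle tumours. Its difference was 0.25 ± 0.43 with the combination (adjusted p = 0.786), 0.77 ± 0.43 with alpelisib (0.32) and 0.10 ± 0.41 with nintedanib (0.932), the smallest of the 10 genes with the combination and with nintedanib. Without Combination 3, the KLK13 difference after the combination was -0.09.

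SPINK5, the inhibitor gene, had 402, 869, 804 and 417 normalized counts in combination tumours and 582, 406, 574 and 378 in alpelisib tumours. It had 604, 264 and 882 in nintedanib responders and 179.7 and 568 in non-responders, against 145, 201, 668 and 408 in vehicle tumours. All groups overlapped, with Vehicle 3 higher than every alpelisib tumour. The difference was 0.97 ± 0.47 with the combination (adjusted p = 0.283), 0.67 ± 0.47 with alpelisib (adjusted p = 0.41) and 0.52 ± 0.44 with nintedanib (adjusted p = 0.655). Without Vehicle 3 these differences were 1.35, 1.06 and 0.90, and without Vehicle 1 they were 0.62, 0.32 and 0.17. Within each tumour, the log2 ratio of KLK5 to SPINK5 averaged -1.56 ± 0.38 in combination, -1.07 ± 0.61 in alpelisib and -1.62 ± 1.02 in nintedanib tumours, against -2.42 ± 1.05 in vehicle tumours (SD). For KLK7 this log2 ratio averaged -0.04 ± 0.59, 0.85 ± 0.69 and 0.32 ± 0.81 in the same treated groups, against -0.39 ± 0.67 in vehicle tumours. For KLK14 it averaged 4.76 ± 0.39, 4.81 ± 0.50 and 4.44 ± 0.49, against 4.42 ± 0.31. For KLK6 and KLK8 the mean ratio was also above vehicle in each treated group, at 0.53, 0.94 and 0.67 against -0.10 for KLK6 and at 0.35, 0.95 and 0.36 against -0.54 for KLK8. The other 4 genes had mean ratios below vehicle in combination and nintedanib tumours and above it in alpelisib tumours. In combination, alpelisib and nintedanib tumours these were 4.20, 4.89 and 4.30 against 4.50 in vehicle for KLK10, and 2.84, 3.35 and 2.90 against 2.95 for KLK11. They were 1.89, 2.42 and 2.10 against 2.13 for KLK12, and 3.18, 4.00 and 3.48 against 3.90 for KLK13. The ratios are descriptions, and the range of each treated group overlapped with that of vehicle except in alpelisib tumours for KLK5 (-1.74 to -0.46, against -3.99 to -1.77) and KLK8 (0.67 to 1.76, against -2.06 to 0.52).

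Set against all genes, the combination asks what both drugs did together. By limma, 0 of 10 genes passed after the combination, as against 0.358% of all genes tested, with counts of 0 by edgeR (0.275% of all genes) and 0 by DESeq2 (3.41%). At an unadjusted p under 0.05, KLK5, KLK6, KLK8, KLK11 and KLK14 were higher, 5 of 10, against 11.2% of all genes, and 0 of 10 were lower, against 6.89%. KLK5 was the 1 gene of 10 whose combination tumours lay wholly above vehicle, against 5.27% of all genes, and 0 of 10 lay wholly below, against 5.31%. All 10 fitted differences were above 0, as were 47.2% of all genes, with a median of 1.14 against -0.03 over all genes. The 10 genes moved together over the libraries (pairwise r from 0.609 to 0.971). Here and below, counts out of 10 are therefore not counts of separate observations. Combination 2 and Combination 3 were higher than Combination 1 and Combination 4 for all 10 genes. Combination 1 and Combination 4 also had 42.1% and 60.1% of their mouse reads in the transcripts Rn45s and Lars2, where reads of ribosomal RNA gather, against 13.7% in each of the other two. Vehicle 3 had 72.9% and Alpelisib 3 had 44.1%. The part of this ribosomal share in the kallikrein levels was not tested. Without these 4 libraries, an alternative added after the data were seen that leaves 2 combination tumours, the 10 genes had a median difference of 2.04 after the combination, 0 passed by limma, and 10 of 10 were higher at an unadjusted p under 0.05 (8.23% of all genes). Combination tumours then lay wholly above vehicle for 9 of 10 genes, against 19.1% of all genes. Without the same 4 libraries the median was 1.32 after alpelisib, with 8 of 10 higher at an unadjusted p under 0.05 (5.46%) and 8 of 10 not overlapping (9.62%). After nintedanib it was 0.87, with 1 of 10 higher at an unadjusted p under 0.05 (3.07%) and 0 of 10 not overlapping (1.49%), and 0 of 10 passed in either.

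Alpelisib against vehicle asks what inhibition of PI3K-alpha alone did. By limma 0 of 10 genes passed (0% of all genes), with 0 by edgeR (0%) and 1 of 4 by DESeq2 (17.2% of the 1008 genes given an adjusted p). At an unadjusted p under 0.05, KLK5, KLK6, KLK7, KLK8, KLK10, KLK11 and KLK12 were higher, 7 of 10, against 11.5% of all genes, and 0 of 10 were lower, against 7.17%. The alpelisib tumours lay wholly above the vehicle tumours for 6 of 10 genes, KLK5, KLK6, KLK7, KLK8, KLK10 and KLK11, against 5.89% of all genes, and wholly below for 0 of 10, against 5.95%. All 10 differences were above 0 (52% of all genes), with a median of 1.07 against 0.02. For KLK8 the 95% interval of the difference, unadjusted, ran from 0.94 to 3.38.

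The comparison of nintedanib with vehicle addresses the effect of the receptor inhibitor by itself, in xenografts that the series text calls resistant to it. By limma 0 of 10 genes passed (0% of all genes), with 0 by edgeR (0%) and 0 of 4 by DESeq2 (1.29%). At an unadjusted p under 0.05, KLK5 and KLK8 were higher, 2 of 10, against 5.11% of all genes, and 0 of 10 were lower, against 2.01%. Nintedanib tumours lay wholly above vehicle for 0 of 10 genes (0.819% of all genes) and wholly below for 0 of 10 (0.509%). All 10 differences were above 0 (49.8% of all genes), with a median of 0.53 against 0.00. Nintedanib non-responder 1 was the lowest nintedanib tumour for all 10 genes. Without it the difference was 1.99 for KLK5, 1.95 for KLK6, 1.84 for KLK7 and 1.02 for KLK14, and 0 of 10 genes passed. The lowest values with 1 library left out were 0.85 for KLK5 without responder 1, 0.93 for KLK6 and 0.84 for KLK7 without responder 3, and 0.30 for KLK14 without Vehicle 2. All 3 treatments share the vehicle tumours, so that their differences from vehicle are not independent of each other.

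**Figure D2:**
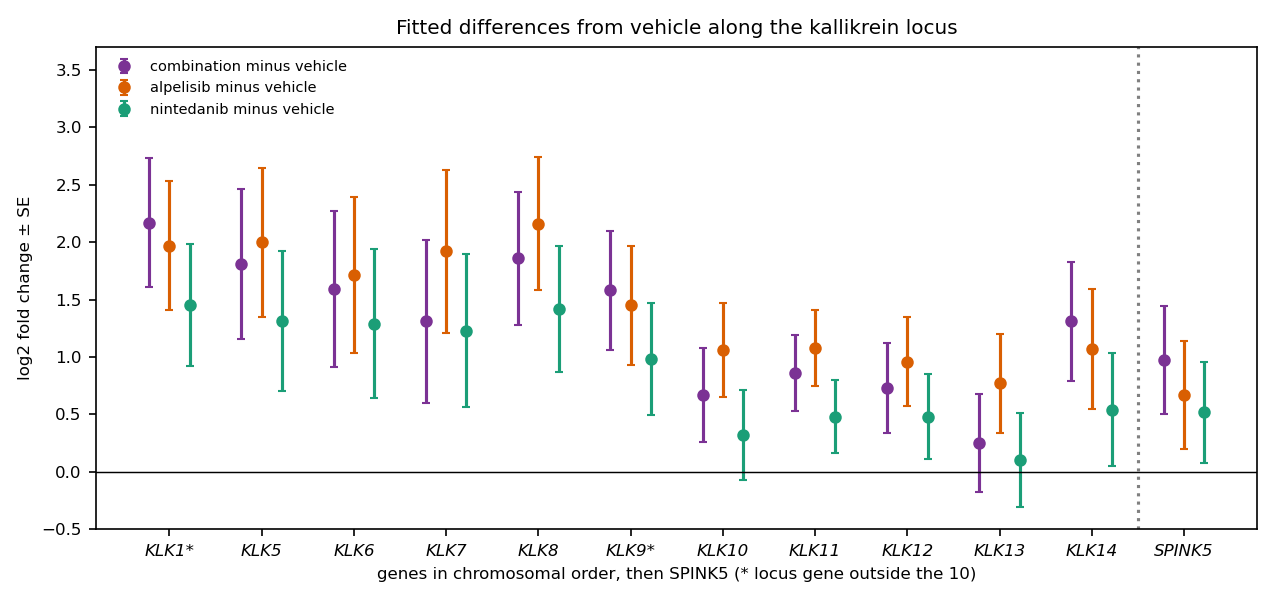
Log2 fold change ± SE (vertical axis) from vehicle for genes of the kallikrein locus that passed the expression filter, in chromosomal order, and for SPINK5, after the combination, alpelisib and nintedanib. Points for KLK5 to KLK8 lie between 1.23 and 2.16, those for KLK10 to KLK13 between 0.10 and 1.08, and those for KLK14 between 0.54 and 1.31.

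The kallikrein genes lie side by side on chromosome 19, and SPINK5 lies on chromosome 5. In the RefSeq annotation of GRCh38.p14, used for gene order alone, the order is KLK1, KLK15, KLK3, KLK2, KLKP1, KLK4, then KLK5 to KLK14. The genes from KLK5 to KLK14 were all expressed in these tumours, including KLK9, which is not among the 10. KLK15, KLK3, KLK2, the pseudogene KLKP1 and KLK4 averaged 0.228, 0.668, 1.22, 0.62 and 8.53 normalized counts over the 17 libraries, and none reached the expression minimum. KLK1, at the far end of the locus, averaged 143 ± 64.6 in combination, 121 ± 40.1 in alpelisib and 108 ± 75.1 in nintedanib tumours, against 31.2 ± 15.9 in vehicle tumours. Its difference from vehicle was 2.17 ± 0.56 (adjusted p = 0.0973), 1.97 ± 0.56 (0.209) and 1.45 ± 0.53 (0.619). KLK9, between KLK8 and KLK10, had differences of 1.58 ± 0.52 (adjusted p = 0.146), 1.45 ± 0.52 (0.22) and 0.98 ± 0.49 (0.619).

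Fitted differences from vehicle were larger for KLK5 to KLK8 than for KLK10 to KLK14, except that KLK7 and KLK14 both had 1.31 after the combination. KLK9, which lies between these stretches, is in neither median. The median over KLK5, KLK6, KLK7 and KLK8 was 1.70 after the combination, 1.96 after alpelisib and 1.30 after nintedanib. Over KLK10, KLK11, KLK12, KLK13 and KLK14 it was 0.73, 1.06 and 0.48. The contrast between these stretches was chosen after the values were seen and is given without a test. The library kit does not mark strand, so reads of overlapping neighbours cannot be told apart.

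**Figure D3:**
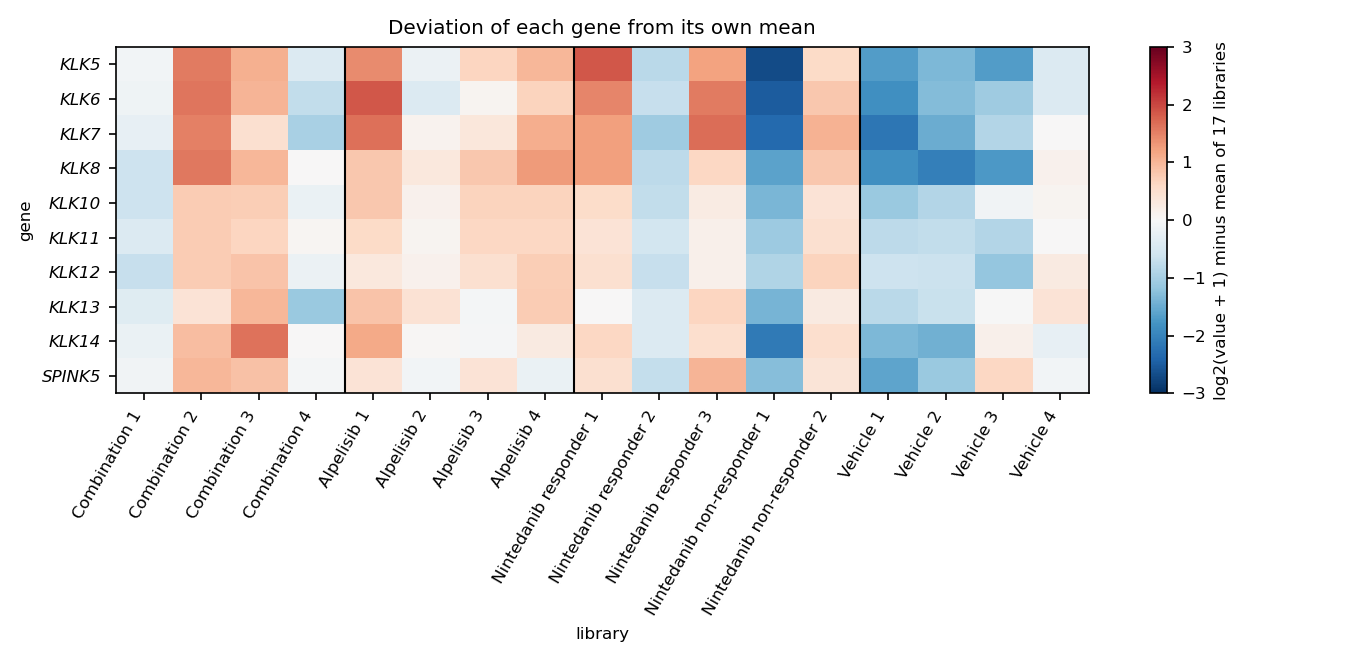
Deviation of log2(value + 1) of each gene (rows) from its own mean over 17 libraries (columns), on a colour scale from -3 (blue) to 3 (red), with black lines between combination, alpelisib, nintedanib and vehicle. Columns are largely of 1 colour: nintedanib non-responder 1 is blue for all 10 genes, and Combination 2 and Combination 3 are red for all 10.

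The levels of the 10 genes went up and down together from tumour to tumour. Over the 17 libraries, pairwise Pearson r of log2 values ranged from 0.609 for KLK12 with SPINK5 to 0.971 for KLK6 with KLK5 and with KLK7, with a median of 0.854. These libraries share 5 treatment groups, so that r mixes differences between and within groups and is given as a description. KLK8 and KLK11 had r = 0.968, and KLK11 and KLK12 had r = 0.959. SPINK5 was closest to KLK14 (r = 0.891).

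Outside the 10 genes, 11883 genes averaging 50 normalized counts or more were ranked by Pearson r with the mean standardized level of the 10 genes over the 17 libraries. The closest were LOR, the cornified envelope protein loricrin (r = 0.976), C6orf15 (0.963), LY6G6C (0.961), PSAPL1 (0.957) and the keratin KRT78 (0.953). They were followed by SBSN, which encodes suprabasin (0.951), the keratin KRT79 (0.949), KLK9 (0.947), WFDC5 (0.943) and GM2A, the GM2 ganglioside activator (0.94). LOR averaged 229 ± 190 in combination, 229 ± 110 in alpelisib and 185 ± 154 in nintedanib tumours, against 44.9 ± 37.6 in vehicle tumours. Because LOR was picked for its likeness to the 10 genes over the same libraries, these means are not a separate result. Closest to KLK7 alone were the carboxylesterase CES1 (r = 0.963), LOR (0.959) and KRT79 (0.945). Closest to SPINK5 alone were the serpin SERPINB3 (r = 0.885), the antisense RNA TSIX (0.881), and the gasdermin GSDMC (0.881). Without strand, TSIX reads cannot be told apart from those of its antisense partner.

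Genes that act with the kallikreins were described from lists, to be read against all genes tested. These lists and the marker lists below were chosen with earlier results of these data known. A share above that of all genes is therefore a description and not a separate result. Of all genes, 47.2% were above 0 after the combination, 52% after alpelisib and 49.8% after nintedanib, and 11.2%, 11.5% and 5.11% were higher at an unadjusted p under 0.05. Among 16 tested protease inhibitors of stratified epithelium, all 16 had differences above 0 after the combination, and 0 passed by limma. Their median was 0.99, with 8 of 16 higher at an unadjusted p under 0.05, against 11.2% of all genes. After alpelisib and nintedanib the medians were 1.23 and 1.14, with 16 of 16 above 0, 7 and 8 higher at an unadjusted p under 0.05, and 0 passing. PI3, the elastase inhibitor elafin, averaged 94442 ± 46468 in combination, 67114 ± 15205 in alpelisib and 63252 ± 42271 in nintedanib tumours, against 20651 ± 13753 in vehicle tumours, a difference after the combination of 2.27 ± 0.53 (adjusted p = 0.081). The cysteine protease inhibitor CST6 had 2.13 ± 0.58 (adjusted p = 0.103), WFDC5 1.92 ± 0.53 (0.103) and SLPI, a leukocyte protease inhibitor, 1.77 ± 0.49 (0.104). The LEKTI relatives SPINK6, SPINK7 and SPINK9 did not reach the expression minimum.

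Among 14 tested upstream and partner proteases, 11 had differences above 0 after the combination with a median of 0.47 and 0 passed. Of the 14, 1 was higher at an unadjusted p under 0.05, a share below the 11.2% of all genes. That gene was PRSS3, which encodes mesotrypsin (1.66 ± 0.41, adjusted p = 0.0942). PRSS8, the membrane protease prostasin, had 0.52 ± 0.27 (adjusted p = 0.312), the lysosomal protease CTSD 0.43 ± 0.24 (0.362) and PRSS22 -0.46 ± 0.26 (0.364). After alpelisib 13 of 14 were above 0 (median 0.31) and after nintedanib 9 of 14 (median 0.18), with 2 higher at an unadjusted p under 0.05 and 0 passing in each.

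Among 14 tested substrates and junction targets, 13 were above 0 after the combination with a median of 0.40, 1 was higher at an unadjusted p under 0.05 (11.2% of all genes), and 0 passed. CDSN, corneodesmosin, the adhesion protein cut during shedding, averaged 617 ± 361 in combination, 664 ± 633 in alpelisib and 643 ± 450.5 in nintedanib tumours, against 187 ± 92.9 in vehicle tumours. Its difference after the combination was 1.65 ± 0.64 (adjusted p = 0.188). The filaggrin genes FLG and FLG2 had 1.63 ± 0.79 (adjusted p = 0.281) and 1.80 ± 0.89 (0.297), and PRSS8, which is also on this list, is given above. After alpelisib 11 of 14 were above 0 (median 0.22) and after nintedanib 12 of 14 (median 0.25), with 1 and 2 higher at an unadjusted p under 0.05 and 0 passing.

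Among 20 tested regulators of keratinocyte differentiation, 11 were above 0 after the combination (47.2% of all genes) with a median of 0.16, and 0 passed. At an unadjusted p under 0.05, 0 were higher (11.2% of all genes) and 2 lower (6.89%). NOTCH1, a receptor that promotes keratinocyte differentiation, averaged 468 ± 95.9 in combination, 538 ± 227 in alpelisib and 568 ± 140.1 in nintedanib tumours, against 994 ± 317 in vehicle tumours, a difference after the combination of -1.04 ± 0.30 (adjusted p = 0.114). GRHL2, a grainyhead transcription factor, had -0.43 ± 0.19 (adjusted p = 0.251), MAF 0.60 ± 0.35 (0.369) and GRHL1 -0.53 ± 0.32 (0.392). After alpelisib 13 of 20 were above 0 (median 0.18) and after nintedanib 14 of 20 (median 0.16), with 1 and 0 higher and 2 and 2 lower at an unadjusted p under 0.05, and 0 passing.

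After the combination, 2 of 16 tested squamous markers passed by limma, against 0.358% of all genes. This list too was chosen with earlier results of these data known, so its shares are descriptions. Of the 16, 15 were above 0 (47.2% of all genes) and 10 were higher at an unadjusted p under 0.05 (11.2%), with a median of 1.43. KRTDAP, a keratinocyte differentiation-associated gene, rose by 2.98 ± 0.54 (adjusted p = 0.0361), and SPRR1B, a cornified envelope precursor, by 2.19 ± 0.47 (adjusted p = 0.0499). KRTDAP averaged 12763 ± 4033 in combination tumours, against 1748 ± 1085 in vehicle tumours. SPRR1A had 2.35 ± 0.50 (adjusted p = 0.0506) and the keratin KRT10 1.22 ± 0.31 (0.0951). After alpelisib 16 of 16 were above 0 (median 1.5) and after nintedanib 13 of 16 (median 1.14), with 12 and 8 higher at an unadjusted p under 0.05 and 0 passing. KRTDAP was named by its p, and its adjusted p and those of the kallikreins come from the same fit, and the difference between them was not tested. Without any 1 of Combination 2, 3 or 4 or Vehicle 1, 2 or 3, the count of all genes passing after the combination was 0, against 52 with all libraries.

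Markers of other cells were read beside these values. After the combination 47.2% of all genes were above 0. Of 8 epithelial tumour markers 6 had differences above 0 and 0 passed by limma (median 0.52), among them the basal keratins KRT17 (1.69 ± 0.38, adjusted p = 0.0661), KRT14 (1.45 ± 0.41, 0.112) and KRT5 (1.03 ± 0.33, 0.143), whereas EPCAM had -0.75 ± 0.30 (0.202). Their summed level was 576867 to 1077917 in combination, 484468 to 766101 in alpelisib and 339425 to 734384 in nintedanib tumours, against 272518 to 467669 in vehicle tumours. Of 6 tested luminal urothelial markers 5 were above 0 and 0 passed (median 0.44), with the uroplakins UPK1A at 2.26 ± 0.77 (adjusted p = 0.157), UPK1B at 0.49 ± 0.24 (0.281) and UPK2 at 0.57 ± 0.28 (0.298), and the transcription factor FOXA1 at -0.81 ± 0.30 (0.174). Of 7 tested host markers 5 were above 0 and 0 passed (median 0.14), with CD68 at 1.22 ± 0.33 (adjusted p = 0.103), ACTA2 at 0.80 ± 0.37 (0.258), COL1A1 at 0.66 ± 0.45 (0.441) and CKM at -0.61 ± 0.45 (0.482). The host sum in the human table was 4171 to 8793 in combination, 2934 to 5633 in alpelisib and 2162 to 11163 in nintedanib tumours, against 2649 to 7440.5 in vehicle tumours. The part of these markers in the kallikrein values was not tested.

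The combination against each drug alone asks whether adding the other drug moved the kallikreins. Against alpelisib, 8 of the 10 genes had a difference below 0 and KLK14 and SPINK5 above 0 (49.7% of all genes), with a median of -0.22 against 0.00 over all genes. By limma 0 of 10 passed (0% of all genes), with 0 by edgeR and 0 by DESeq2, and at an unadjusted p under 0.05 0 of 10 were higher (1.29% of all genes) and 0 lower (3.17%). The groups overlapped for all 10, where 0.86% of all genes lay wholly higher and 1.55% wholly lower. The differences ran from -0.60 ± 0.71 for KLK7 (95% interval -2.09 to 0.89) to 0.30 ± 0.47 for SPINK5 (-0.69 to 1.28). Without the 4 libraries rich in ribosomal reads, the 8 differences below 0 were above 0, between 0.02 and 0.60. Against nintedanib, all 10 differences were above 0 (51.3% of all genes), from 0.08 ± 0.67 for KLK7 (-1.33 to 1.49) to 0.77 ± 0.49 for KLK14 (-0.26 to 1.80), with a median of 0.36. By limma 0 of 10 passed (0% of all genes), with 0 by edgeR (0%) and 0 by DESeq2 (0.00688%), and at an unadjusted p under 0.05 0 were higher (1.28% of all genes) and 0 lower (2.55%). The groups overlapped for all 10, where 0.317% of all genes lay wholly higher and 0.908% wholly lower. Without nintedanib non-responder 1, the differences of KLK5, KLK6, KLK7 and KLK13 from nintedanib were -0.18, -0.35, -0.53 and -0.15. These intervals leave room for differences in either direction, so that equal levels are not shown.

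The departure from additivity, taken as the combination's difference from vehicle less the sum of both single-drug differences, was below 0 for all 10 genes, with a median of -0.71 against -0.05 over all genes. By limma 0 of 10 passed (0% of all genes), with 0 by edgeR and 0 by DESeq2. KLK8 was 1 gene of 10 lower at an unadjusted p under 0.05 (-1.72 ± 0.80, adjusted p = 0.662), against 4.42% of all genes, and 0 of 10 were higher, against 2.42%; 46.1% of all genes were above 0. KLK7 had -1.83 ± 0.98 (adjusted p = 0.662), and SPINK5 was nearest to 0 (-0.22 ± 0.65, adjusted p = 0.91).

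Responders against non-responders among nintedanib tumours compares 3 with 2 libraries as titled. All 10 differences were above 0 (45.7% of all genes), from 0.10 ± 0.51 for KLK12 to 1.81 ± 0.84 for KLK5 (adjusted p = 0.999 for both), and 0 of 10 passed by limma (0% of all genes), with 0 by edgeR and 0 by DESeq2. KLK5 was the 1 gene of 10 with an unadjusted p under 0.05 (1.2% of all genes higher), and 0 of 10 were lower (0.427%). Responders lay wholly above non-responders for 0 of 10 genes (6.85% of all genes) and wholly below for 0 of 10 (7.66%). The direction rested on non-responder 1: without it, which leaves 1 non-responder whose spread is assumed to equal that of the other groups, the differences of KLK6, KLK7, KLK8, KLK10, KLK11, KLK12, KLK13, KLK14 and SPINK5 were below 0, between -0.69 and -0.04.

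**Figure D4:**
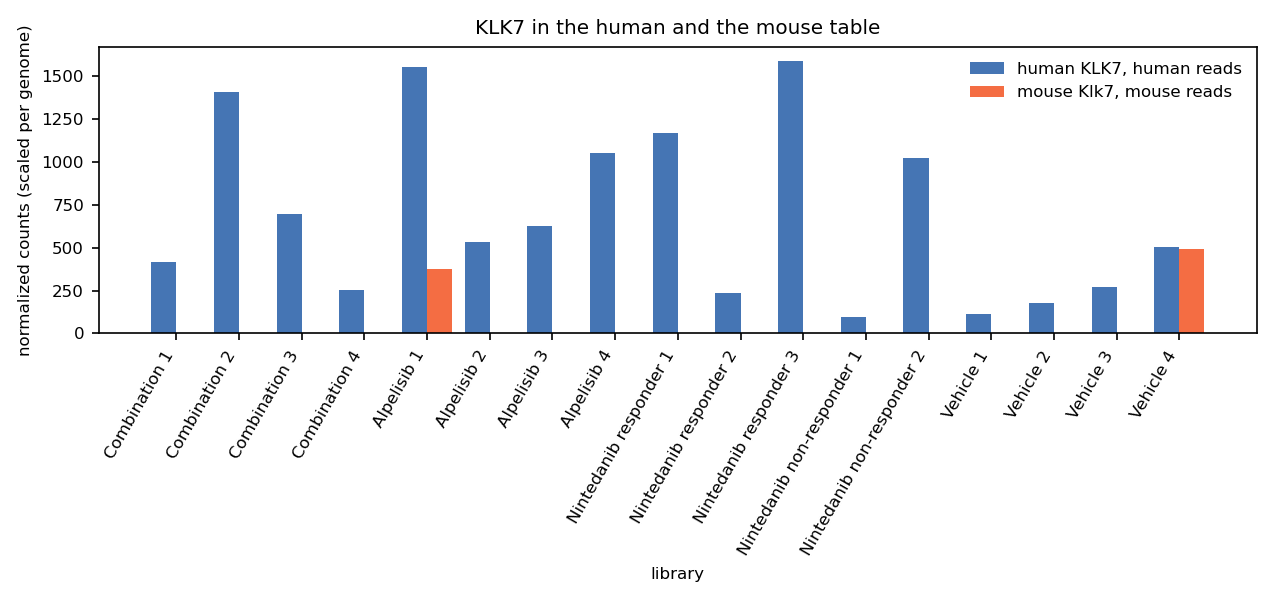
Normalized counts (vertical axis, linear from 0, scaled separately per genome) of KLK7 in human reads and Klk7 in mouse reads of each library. Mouse Klk7 stands at 374 in Alpelisib 1 and 492 in Vehicle 4, and at no more than 2.03 in the other 15 libraries.

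The mouse table held reads of most of these genes in 2 tumours, Alpelisib 1 and Vehicle 4. In these 2 tumours Klk12 stood at 1.56 and 0, and Klk14 at 0 and 0.456. The summed mouse counterparts of the 10 genes were 759 normalized counts in Alpelisib 1 and 864 in Vehicle 4, against 2.30 to 19.3 in the other 15 libraries. Mouse counterparts of the squamous markers, 15 of 17 of which are in the mouse table, also stood apart: 14 of 15 were above 0 in both tumours. Their sum was 16253 in Alpelisib 1 and 5099 in Vehicle 4, against 113 to 407 in the other libraries. Vehicle 4 was the highest vehicle tumour in human reads for 8 of the 10 genes, all but KLK14 and SPINK5, and Alpelisib 1 was the highest alpelisib tumour for 7. Whether mouse reads added to the human values there was not tested. Without both tumours, an alternative added after the data were seen, the median difference of the 10 genes from vehicle was 1.29 after the combination, 1.26 after alpelisib and 0.73 after nintedanib, and 0 of 10 passed in each. The groups then did not overlap for 4, 7 and 1 of the 10 genes, against 7.8%, 15.5% and 3.21% of all genes. At an unadjusted p under 0.05, 7, 6 and 4 of the 10 genes were higher, against 12.7%, 13.6% and 7.97% of all genes.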

How the data were processed

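RNA of 17 xenograft tumours was sequenced, 1 library each. Per the labels' protocols, libraries of polyA RNA came from the TruSeq RNA kit v2, with paired 75-bp reads. Per the submitters' processing notes, Bowtie, TopHat and DESeq2 were used with the builds hg19 and mm10, and per the series text reads were mapped separately to both genomes. For the read counter and the annotation no name is given in the sources used here. Values as deposited are a normalized signal, read counts divided by 1 size factor per library by the authors. In the human table all values (100%) were whole multiples of 1 read within 0.001, so whole reads were recovered.

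Groups came from the titles. Genes with a mean of at least 10 were fitted on log2(value + 1) with limma 3.58.1 (limma-trend, R 4.3.3, 1 mean for each of 5 groups, nintedanib as the mean of its 5 libraries). The adjusted p is Benjamini-Hochberg over 14533 genes, with a threshold of 0.05, two-sided. Alternatives were edgeR 4.0.16 and DESeq2 1.42.0 on recovered reads, TMM scaling, a pseudocount of 5, no expression filter, a replicate block and leaving out each library. The scripts were tested on simulated data with the same dispersion for every gene. That test does not give the power or the rate of false calls for the 10 genes here. Mouse values were only described. Within groups the library pairs differed beyond sampling noise (lowest chi-square per gene 18.9 over 22 pairs). Genes named were the 10 members, up to 4 genes per list with the smallest p after the combination, the 10 most alike, and the 3 most alike KLK7 and SPINK5. Members and lists were chosen with earlier results of these data known.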

Additional observations from a re-analysis of the deposited data

Results flagged for a closer look

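Among 40 sets of values (10 genes in 4 treatment groups), 3 held a tumour far from the others of its group. In independent sets of normal values, chance gives about 1 in 20. These sets are not independent, because the genes were read in the same libraries and moved together (median pairwise r = 0.854). KLK8 and KLK11, both flagged in Vehicle 4, had r = 0.968. KLK8 was 585 normalized counts in Vehicle 4, against 128 to 160.5 in the other vehicle tumours. KLK11 was 3535 in Vehicle 4, against 1900 to 2065 in the other vehicle tumours. KLK11 was 3714 in Alpelisib 2, against 5198 to 5368 in the other alpelisib tumours. Vehicle 4 also held mouse kallikrein reads, with Klk8 at 69.3 and Klk11 at 19.2. In Alpelisib 2, where human KLK11 was low, mouse Klk11 stood at 0. The part of mouse reads in the Vehicle 4 values was not tested.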

How the results depend on the processing

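The count of members passing stayed at 0 under all alternatives run, except for alpelisib against vehicle, where DESeq2 called 1 (KLK11) and 173 of all genes. Over all genes the combination against vehicle had 52 calls, which became 0 without an expression filter, 496 by DESeq2, 29 with the replicate block and 0 without the 4 libraries rich in ribosomal reads, and ran from 0 to 97 when single libraries were dropped, the most without Combination 1. DESeq2 called 13 genes for nintedanib against vehicle and 1 for the combination against nintedanib. Dropping single libraries gave nintedanib against vehicle 0 to 1 calls, with 1 without non-responder 1. The causes were not tested.

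Signs turned as follows on the log2 scale. For KLK7, the combination minus nintedanib was -0.18 by edgeR, -0.19 by DESeq2 and -0.01 with the replicate block. For KLK12, responders minus non-responders was -0.03 by DESeq2. Without Vehicle 4 and Alpelisib 1, the combination minus alpelisib was 0.04 for KLK5 and 0.32 for KLK6. Without the 4 libraries rich in ribosomal reads it was 0.56 for KLK5, 0.60 for KLK6, 0.05 for KLK7, 0.50 for KLK8, 0.22 for KLK10, 0.27 for KLK11, 0.42 for KLK12 and 0.02 for KLK13, and the departure from additivity was 0.14 for KLK12.

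When libraries were left out one at a time, the combination minus vehicle ran from -0.09 to 0.61 and nintedanib minus vehicle from -0.11 to 0.40 for KLK13. The combination minus alpelisib ran from -0.53 to 0.12 for KLK5, -0.51 to 0.32 for KLK6, -0.67 to 0.07 for KLK8, -0.38 to 0.01 for KLK11, -0.45 to 0.07 for KLK12 and -0.10 to 0.50 for KLK14. The combination minus nintedanib ran from -0.18 to 0.96 for KLK5, -0.35 to 0.70 for KLK6, -0.53 to 0.47 for KLK7 and -0.18 to 0.52 for KLK13. Responders minus non-responders ran from -0.04 to 3.28 for KLK6, -0.43 to 2.95 for KLK7, -0.46 to 1.96 for KLK8, -0.41 to 1.38 for KLK10, -0.48 to 1.09 for KLK11, -0.69 to 0.88 for KLK12, -0.19 to 1.48 for KLK13, -0.26 to 2.35 for KLK14 and -0.13 to 1.53 for SPINK5. The departure from additivity ran from -0.61 to 0.13 for SPINK5.

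Titles share replicate numbers. For pairs of tumours, Pearson r was taken over genes on log2 values less the mean of each tumour's own group. Same-number tumours of different groups had such an r above 0.1 in 3 of 12 pairs, against 14 of 36 pairs with different numbers. Nintedanib tumours were not in this count, and it cannot exclude a batch shared by equal numbers. Depth limits KLK5 most, at 19 reads in non-responder 1.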
